A study of Mus musculus with 3 samples.

Results

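TBX1 ChIP-seq peaks were located around Tshz1, Tshz2 and Tshz3, the 3 teashirt zinc finger genes of the mouse. The genes were chosen by name, and their regions by position alone: a peak of any list, or a region of the consensus list, was taken when it lay within 800 kb of a gene body in the GENCODE vM1 annotation of mm9. This gave 2 of the 255 consensus regions and 5 of the 1088 peaks summed over the 3 lists. One region lay in Tshz2 and one far downstream of Tshz3, and none was found for Tshz1. The nearness and the strength of these peaks are therefore given as descriptions, without a test.

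Teashirt proteins are nuclear zinc finger proteins that mostly act as transcriptional repressors. The founding gene, teashirt of Drosophila, specifies trunk identity together with the Hox genes. In the mouse, Tshz1 is needed for the soft palate, the middle ear and the olfactory bulb, and Tshz3 for the smooth muscle of the ureter and for brain circuits. TBX1 is a T-box transcription factor of the pharyngeal apparatus, and its loss disturbs the heart, the outflow vessels, the palate and the branchiomeric muscles.

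The chromatin came from whole embryos at E9.5. All samples belonged to a single group and carried 2 modified alleles in the homozygous state, Tbx1 3'-Avi, which adds a short Avi peptide to the end of endogenous TBX1, and the BirA allele Gt(ROSA)26Sortm1.1(BirA)Mejr, from a stock of FVB;129P2 background, whose biotin ligase biotinylates that peptide so that TBX1 can be captured on streptavidin. There were 3 biological replicates of 20 pooled embryos, of mixed strain. The tagged allele was made by CRISPR/Cas9 and backcrossed to Swiss Webster mice before the cross to BirA, so every embryo had only tagged TBX1, and since whole embryos were used the peaks cannot be assigned to a tissue. Peaks had been called in each replicate against input chromatin, and the deposited lists hold 146 peaks for replicate 1, 646 for replicate 2 and 296 for replicate 3, numbered as in the sample titles. These are not the peak numbers that the study states for its replicates, so its replicate numbers, and the sequencing depths it gives by them, could not be matched to the lists. Of the 255 consensus regions, 87 (34.1%) overlapped a deposited peak in 3 lists, 130 (51.0%) in 2, 35 (13.7%) in 1 and 3 (1.18%) in 0, so 38 did not meet the stated minimum of 2 lists in the deposited files. Embryos without the tag were not analysed here, and the lists give no reads per peak.

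The sequence under both regions is shown first, because it was the feature that they shared and that the choice of regions had not used. Each is 300 bases of the plus strand of NCBIM37, the assembly called mm9, centred on the mean of the summits in the replicates. The first lies at chr2:169632487-169632786, in an intron of Tshz2, and capitals mark the word TGACAG. The other lies at chr7:38326814-38327113, downstream of Tshz3, and capitals mark the word CAGCTG.
Tshz2 region: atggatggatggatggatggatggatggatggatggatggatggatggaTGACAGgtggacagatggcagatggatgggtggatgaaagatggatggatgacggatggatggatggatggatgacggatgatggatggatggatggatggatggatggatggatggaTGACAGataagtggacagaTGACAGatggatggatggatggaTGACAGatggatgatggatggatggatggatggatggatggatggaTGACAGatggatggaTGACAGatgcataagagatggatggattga
Tshz3 region: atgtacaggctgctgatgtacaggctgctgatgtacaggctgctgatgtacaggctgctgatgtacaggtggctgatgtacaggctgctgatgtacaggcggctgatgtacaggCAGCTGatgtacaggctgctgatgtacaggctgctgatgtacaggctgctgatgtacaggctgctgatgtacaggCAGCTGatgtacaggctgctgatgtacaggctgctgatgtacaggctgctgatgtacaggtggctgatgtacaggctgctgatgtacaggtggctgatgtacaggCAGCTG

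Both windows were tandem repeats. The Tshz2 window was built from the 4-base unit atgg, with 47 exact copies, and units in any phase covered 250 of the 300 bases (83.3%). The Tshz3 window was built from a 15-base unit, atgtacaggctgctg, with 13 exact copies, and such units covered 258 bases (86.0%). Across the whole consensus regions the units covered 371 of 603 bases (61.5%) at Tshz2 and 351 of 429 bases (81.8%) at Tshz3. At Tshz3 the repeat ran for 507 bp, from 38326705 to 38327211, and so covered the consensus region from end to end.

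Tandem repetition was measured in every consensus region as the share of bases in the 300-base window that equal the base 1 period before, at the best period from 1 to 60. It was 73.6% at Tshz2 with a period of 4, which ranked 19 among the 255 windows, and 95.9% at Tshz3 with a period of 30, which ranked 3. The median window had 33.3%. A share of at least 70% was found in 24 windows (9.41%), against 0 of the 255 windows placed 5 kb to the right and 0 of those 5 kb to the left, and in 6 of 3286 RefSeq promoters (0.183%, taken at regular steps through the GRCm38.p6 table). The limit was chosen after the data had been seen. At 60% there were 31 consensus windows and 1 window in each flank, and at 80% there were 15 (5.88%), with the Tshz3 window but not the Tshz2 window, and 0 in either flank. Windows 5 kb to the right and left of the members had 37.6% and 35.9% at Tshz2 and 34.8% and 33.3% at Tshz3, so the flanks were close to the median window. The word made of 3 units, atggatggatgg, was in 16 of the 255 windows on either strand (6.27%) and in 10 of 32851 promoters (0.0304%), whereas the 15-base unit of the Tshz3 window was in 1 of the 255 windows, its own, and in 0 promoters. All 9 words of 100 bases that were taken at steps of 25 from each window occurred exactly once in NCBIM37. Among windows with a peak in all 3 lists, 12 of 87 (13.8%) reached 70%, among those with a peak in 2 lists 8 of 130 (6.15%), in 1 list 3 of 35 (8.57%) and in 0 lists 1 of 3. The part that repetition had in calling these peaks was not tested.

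**Figure D1:**
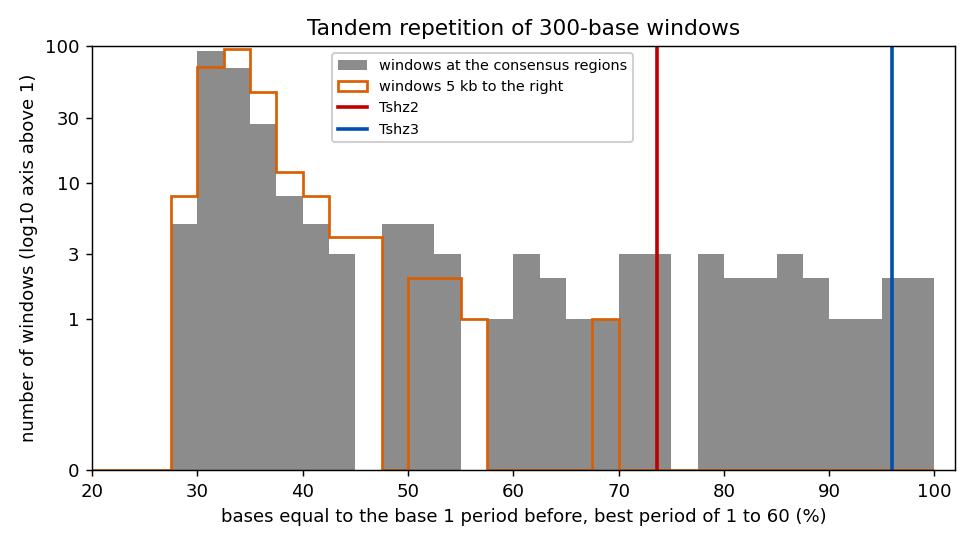
Number of 300-base windows (log10 axis above 1) by the percentage of bases equal to the base 1 period before, for the 255 consensus regions (grey) and for windows 5 kb to their right (orange outline). The Tshz2 window (red line, 73.6%) and the Tshz3 window (blue line, 95.9%) lie in the tail above 70%, where no window of the flank is found.

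Short words of transcription factor families were then searched on both strands of these windows. GGTGTGA, a form of the T-box element, was in neither window, in 6 of the 255 consensus windows (2.35%) and in 3.98% of the 32851 RefSeq promoters. A longer T-box word, in which GGTG and either C or T stand before TGACAG, was in neither window and in 9 consensus windows (3.53%). Of the promoters, 0.0335% held it. TGACAG, which that word contains, is also a known word of the TALE homeodomain proteins. It occurred 6 times in the Tshz2 window and was not found in the Tshz3 window. It was in 134 consensus windows (52.5%) and in 19.2% of the 32851 RefSeq promoters. In the Tshz2 window the centre of the nearest copy lay 2 bp before the summit of replicate 1, 9 bp after that of replicate 2 and 45 bp before that of replicate 3. A different copy was the nearest in each replicate. The 6 copies interrupt the atgg repeat at several places in the window, so these distances do not single out a site. TGACAG was in 8 of the 24 windows with tandem repetition (33.3%) and in 126 of the other 231 windows (54.5%). TGATTGAT, a word of PBX proteins, was in neither window, in 26 consensus windows (10.2%) and in 0.746% of the promoters. Of 7 more words that were added after the regions had been located, CAGCTG, an E-box of muscle and neural bHLH proteins, occurred 3 times in the Tshz3 window, where it is a variant of the repeat unit, and was in 78 consensus windows (30.6%). AGATAA, bound by GATA factors, occurred once in the Tshz2 window and was in 43 consensus windows (16.9%). Neither window held TGATTTAT, nor the forkhead word TGTTTAC, nor the homeobox word TAATTA, nor the TEAD word CATTCC, nor a PBX word joined to TGACAG. A match here describes the letters and does not show that a factor was bound. Nor does a missing exact word show that a site is absent. The study reports a T-box motif in most of its consensus peaks, from a motif search rather than from exact words.

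The 3 genes each have transcripts with one layout, a short first coding exon, a long first intron and a single exon with nearly all of the coding sequence. In the annotated coding transcript of Tshz1, that of Tshz3 and 2 of those of Tshz2, the first coding exon held 40 coding bases, and the largest exon held 98.8%, 98.8% and 98.7% of the coding sequence of 3252, 3243 and 3090 bases. The intron between them was 69.12 kb in Tshz1, 249.7 kb in Tshz2 and 70.34 kb in Tshz3. A further Tshz2 transcript, with a coding sequence of 3093 bases, had 4 exons, of which 3 were coding, and its first coding exon held 7 bases. The other 4 Tshz2 transcripts had a single coding exon of 456 to 1566 coding bases. Tshz1 (ENSMUSG00000046982.7) is on the minus strand of chromosome 18 from 84181019 to 84255954, Tshz2 (ENSMUSG00000047907.7) on the plus strand of chromosome 2 from 169458671 to 169897316, and Tshz3 (ENSMUSG00000021217.5) on the plus strand of chromosome 7 from 37483137 to 37558476. Tshz2, at 438.6 kb, was among the longest 1.18% of the 22367 protein-coding genes of the annotation. The protein-coding neighbours differ as well. Tshz2 is flanked closely, with Gm11011 45.43 kb upstream and Zfp217 36.83 kb downstream, whereas Tshz3 stands alone, with 895.1 kb to E130304I02Rik upstream and 545.2 kb to Zfp536 downstream. Tshz1 has Zadh2 1.596 kb upstream and 1006 kb without a protein-coding gene before Zfp516 downstream.

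With the 800 kb limit, 2 of the 3 teashirt genes had a consensus region, as did 4191 of the 22367 protein-coding genes (18.7%). The Tshz3 region was lost, leaving 1 of the 3 genes, within 500 kb (12.9% of all protein-coding genes), within 100 kb, and within 800 kb of the transcription start site (18.3%). For 100 kb, the share lay between 3.0% (within 93.2 kb) and 3.5% (within 111.3 kb) of protein-coding genes on a chromosome with a consensus region. A peak of any list lay within 800 kb of the gene body of Tshz2, of Tshz3 and of 37.8% of all protein-coding genes. A consensus region overlapped the gene body of Tshz2 and of 120 protein-coding genes in all (0.537%). Since the regions were found by this distance, and the genes were chosen with such results known, these counts are descriptions. Of these genes, 21418 lie on a chromosome with a consensus region, and their median distance to the nearest one was 3021 kb. Tshz2 was at 0 kb, Tshz3 at 768.3 kb with 19.0% of the genes as near or nearer, and Tshz1 at 7986 kb with 81.2% as near or nearer.

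**Figure D2:**
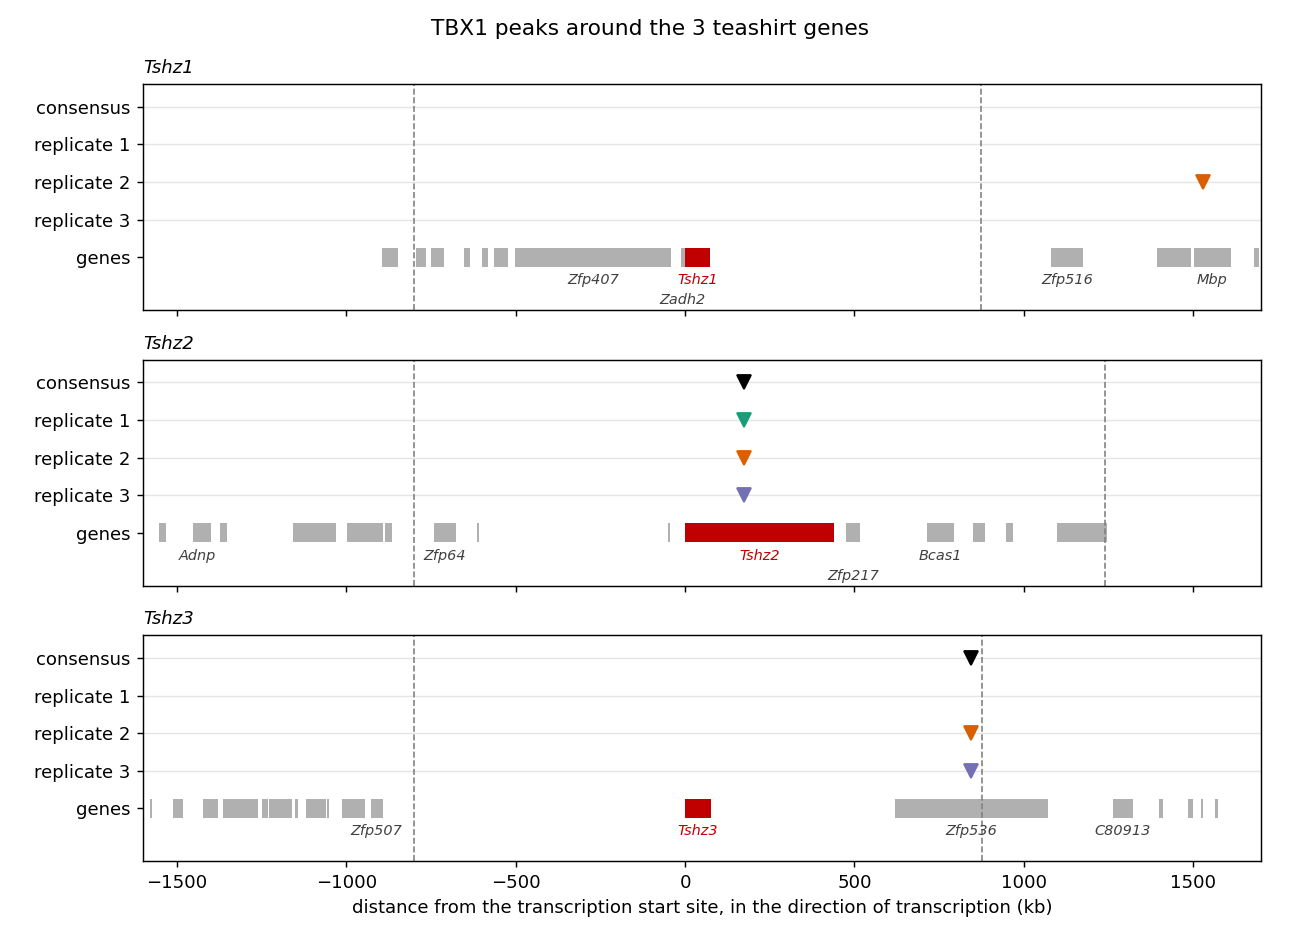
Peaks and consensus regions (triangles) and protein-coding genes (bars, the teashirt gene in red) by distance from the transcription start site in kb, in the direction of transcription, for Tshz1, Tshz2 and Tshz3, with dashed lines 800 kb from either end of the gene. Tshz2 has a peak of every list in its body, Tshz3 has peaks of replicates 2 and 3 just inside the downstream limit in Zfp536, and Tshz1 has a single peak of replicate 2 in Mbp, outside the limit.

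The Tshz2 region (chromosome 2, 169632320 to 169632922, 603 bp) lay inside the gene, 173.6 kb downstream of its transcription start site and 15.8 kb from the nearest annotated exon. It fell in the long intron before the main coding exon. The lincRNA Gm16898, which is annotated on the opposite strand from 169459146 to 169714003, also covers the region with an intron, and its own start is 81.08 kb away. By distance to a transcription start site, the nearest protein-coding gene was AY702102, which lies within Tshz2 (155.6 kb), and Tshz2 itself was next. The RefSeq promoter of Tshz2 matched NCBIM37 exactly once and put the start 662 bp upstream of the GENCODE one. No peak of any list was found at the Tshz2 promoter.

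At this region all 3 replicates had a peak. The fold enrichment over the background was 9.73 in replicate 1, 17.6 in replicate 2 and 8.73 in replicate 3. These values were above the list medians of 6.51, 6.25 and 6.14. Peaks ranked 16 of 146, 11 of 646 and 52 of 296 by fold enrichment, and the percentile within the list was 90.3 ± 7.86 (mean and SD, n = 3). The −log10 q was 15.2, 41.8 and 18.1, with ranks of 14, 14 and 35. The peaks were wide, at 432, 596 and 553 bp against list medians of 213, 215.5 and 213 bp, which put them at the 93.8, 98.6 and 98.0 percentile of width. Among the 252 consensus regions that overlap a deposited peak, the region ranked 23 by mean percentile, and among the 87 with a peak in all 3 lists it ranked 18. All 11 peaks of replicate 2 that were at least as strong, this one included, had a peak in replicate 1 and in replicate 3. Of the 52 such peaks of replicate 3, 40 (76.9%) had a peak in replicate 1 and 51 (98.1%) in replicate 2.

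The Tshz3 region (chromosome 7, 38326771 to 38327199, 429 bp) lay 768.3 kb downstream of the end of the gene and 843.6 kb from its start. It was in an intron of Zfp536, another zinc finger gene (minus strand, 38103693 to 38554771), 25.6 kb from the nearest annotated Zfp536 exon and 227.6 kb from its start site. No gene of the annotation lay wholly between the region and Tshz3. By distance to a transcription start site Tshz3 was only the 7th protein-coding gene. Nearer were Zfp536, C80913 (477.4 kb), Ccne1 (565.4 kb), 1600014C10Rik (641.0 kb), Plekhf1 (685.8 kb) and Pop4 (729.2 kb). The region is thus a neighbour of Tshz3 along the chromosome, and the lists hold no measurement of which gene it acts on. The study has other evidence, not analysed here. It names Tshz3 as a predicted TBX1 target with reduced expression in multilineage progenitors of Tbx1 conditional mutants. The region assigned to Tshz3 whose accessibility differed in such mutants did not overlap a TBX1 peak.

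Replicates 2 and 3 had a peak there, and replicate 1 had none. The fold enrichment was 12.0 in replicate 2 and 7.55 in replicate 3, above the list medians of 6.25 and 6.14. The ranks were 33 of 646 and 76 of 296, with a percentile of 84.9 ± 14.4 (mean and SD, n = 2). By −log10 q, which was 34.1 and 20.4, the peaks stood higher in their lists, at ranks 19 and 27. In replicate 3 the order of the members turned with the measure, since the Tshz2 peak had the higher fold enrichment and the Tshz3 peak the higher −log10 q. The region ranked 43 among the 252 regions by mean percentile and 11 among the 114 with peaks in replicates 2 and 3 only. Of the 33 peaks of replicate 2 at least as strong, 28 (84.8%) had a peak in replicate 1 and 33 in replicate 3, and the Tshz3 region was among those without a peak in replicate 1. Of the 76 such peaks of replicate 3, 51 (67.1%) had a peak in replicate 1 and 75 (98.7%) in replicate 2. Absence from the shortest list does not show that TBX1 was absent, since the lists give no signal outside the called peaks.

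**Figure D3:**
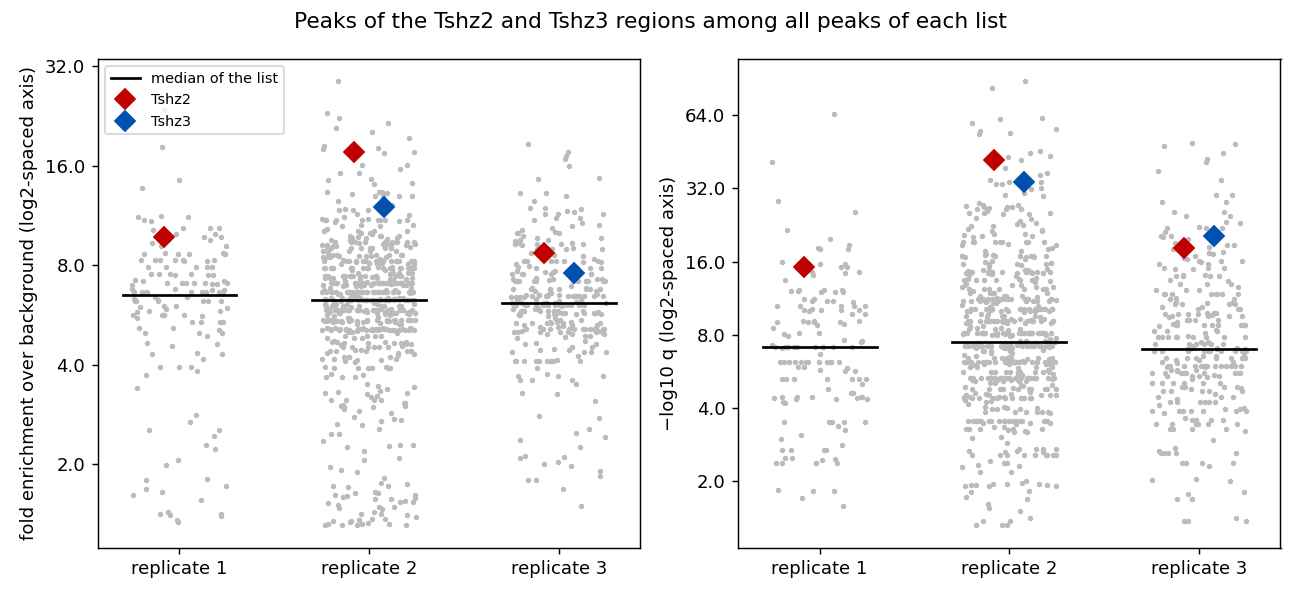
Fold enrichment (left) and −log10 q (right) of every peak of the 3 lists (grey points, both axes log2-spaced), with the list median (bar) and the Tshz2 (red) and Tshz3 (blue) peaks. The 5 peaks of the teashirt regions lie above the median of their list on both scales, and in replicate 3 the Tshz3 peak is below the Tshz2 peak in fold enrichment and above it in −log10 q.

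The shape of the peaks also differed between the regions. At Tshz3 the summits of replicates 2 and 3 were 5 bp apart, and 27 of the 238 merged regions with a single peak in each of these lists had closer summits (median 30.5 bp). The widths were unlike, 488 bp in replicate 2 and 154 bp in replicate 3, the latter below the list median. At Tshz2 the summits of replicates 1 and 2 were 8 bp apart, with a median of 24 bp over 127 regions, whereas that of replicate 3 lay 75 bp from replicate 1 and 83 bp from replicate 2. For the pair of replicates 2 and 3, 87.8% of the regions had closer summits than the Tshz2 region.

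**Figure D4:**
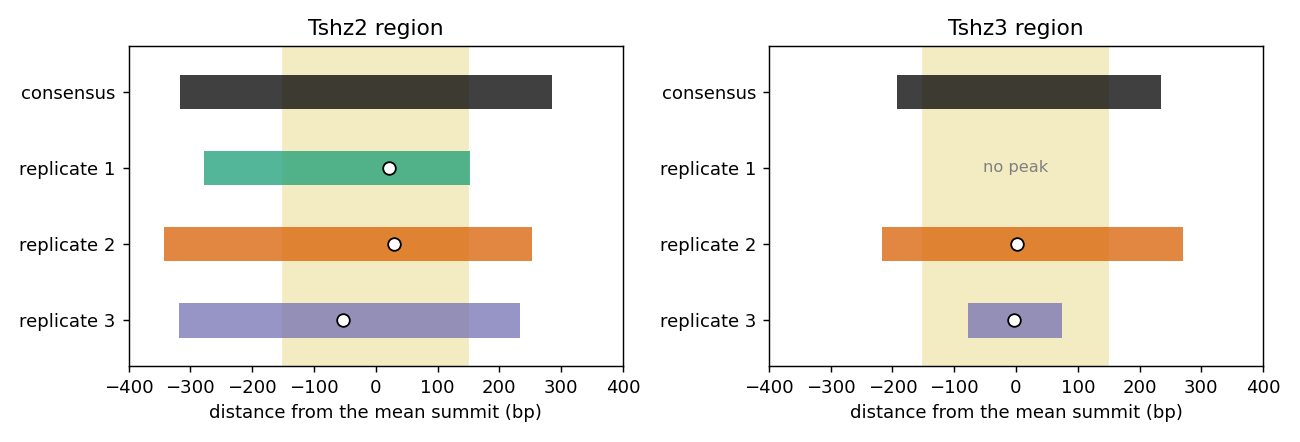
Extent of the consensus region and of each replicate's peak (bars) and the summits (white circles), in bp from the mean summit, at the Tshz2 region (left) and the Tshz3 region (right). The shaded band is the printed 300-base window, and it contains all 5 summits, which are spread over 83 bp at Tshz2 and 5 bp at Tshz3.

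No peak of any list was found within 800 kb of Tshz1. The nearest was a peak of replicate 2 alone, 1454 kb downstream of the gene in Mbp, the gene of myelin basic protein, at 9.38-fold enrichment, a −log10 q of 14.5 and rank 78 of 646. The nearest consensus region and the nearest peak of replicate 3 lay 7986 kb away in Zbtb7c, and the nearest peak of replicate 1 lay 18800 kb away in Nedd4l. Replicate 1 had only 2 peaks on the whole of chromosome 18, replicate 2 had 27 and replicate 3 had 11. Just inside the 800 kb limit was the Tshz3 region at 768.3 kb. Just outside it were the Mbp peak at 1454 kb, and then for Tshz2 a consensus region 1882 kb upstream and for Tshz3 one 8548 kb upstream, so no peak lay close to the limit on its outer side.

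**Figure D5:**
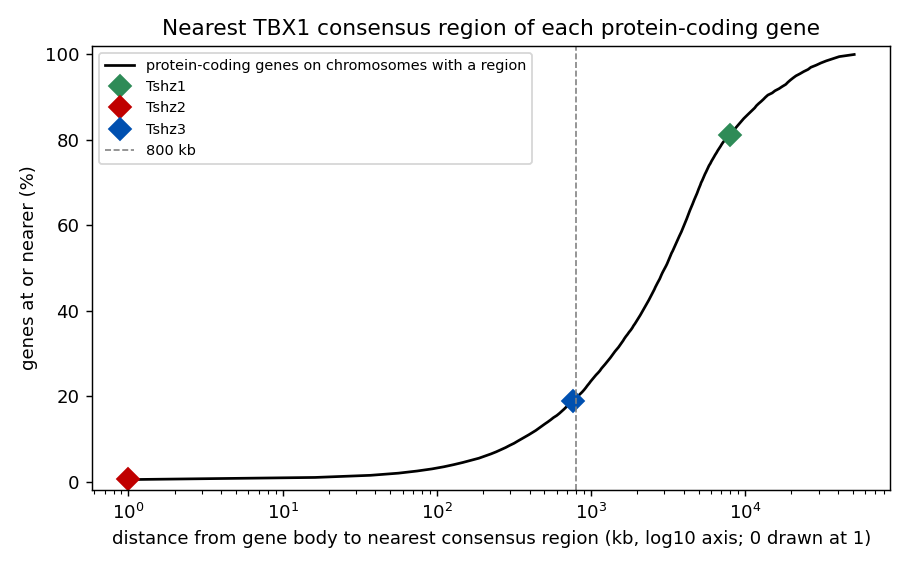
Percentage of protein-coding genes whose nearest consensus region is at or nearer than a given distance (kb, log10 axis, 0 drawn at 1), for the 21418 genes on chromosomes with a region. Tshz2 (0 kb), Tshz3 (768.3 kb) and Tshz1 (7986 kb) are marked, and only Tshz1 lies beyond the 800 kb line.

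Teashirt genes belong with other genes to the zinc finger class of homeobox genes. Of the 11 other members, 5 had a consensus region within 800 kb (45.5%, against 18.7% of all protein-coding genes), and the median distance over the 11 was 2912 kb against 3021 kb for all genes. The regions of Zfhx3, a large zinc finger homeobox factor, and of Zhx3 lay in the genes. Enrichment at Zfhx3 was 8.08-fold in replicate 2 and 9.17-fold in replicate 3, and at Zhx3 it was 7.03-fold and 5.80-fold. Zhx1 and Zhx2 are neighbours and shared a region, with 9.77 and 6.07 in the same replicates. Adnp, a chromatin factor, was 429.5 kb from a region with 7.52, 10.9 and 4.84 in replicates 1, 2 and 3. This was also the next consensus region upstream of Tshz2, and like the Tshz2 region it was a repeat with a period of 4 (82.8%), whereas the windows of Zfhx3, Zhx1 and Zhx3 had 30.2%, 33.8% and 39.0%. Adnp2, Homez, Zeb1, Zeb2, Zfhx2 and Zfhx4 had no region within 800 kb.

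A second list held 12 genes that are tied to teashirt function, with smooth muscle regulators (Myocd, Srf, Sox9, Tbx18, Bmp4 and Shh) and corepressor or partner genes (Ctbp1, Ctbp2, Apbb1, Set, Hdac1 and Hdac2). A region lay within 800 kb of 5 of them (41.7%, against 18.7% of all protein-coding genes), and the median distance was 1898 kb against 3021 kb for all genes. Tbx18, a T-box gene needed for ureter smooth muscle, had a region 0.11 kb past its end, enriched 6.21-fold in replicate 1 and 9.24-fold in replicate 2. Sox9, a partner of TSHZ3 in smooth muscle, had 3 regions, the nearest at 498.5 kb. Srf, at 744.0 kb, Bmp4, at 426.5 kb, and Hdac1, at 499.4 kb, had a single region each. The region nearest to Myocd, the gene of myocardin, was 1139 kb away, past the limit. None of the windows nearest to these 5 genes was repetitive, with shares of 30.6% to 34.5%. Both lists were made with earlier results of these data known, and neighbouring genes can share a region, so the counts are descriptions.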

How the data were processed

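TBX1 ChIP-seq of whole embryos was analysed from the deposited peak lists of 3 replicates and the deposited consensus list. Per the labels and the study's methods, the authors removed adapters (cutadapt, Trim Galore) and mapped read pairs with Bowtie2 2.3.4 to mm9. Only unique, concordant, non-duplicate pairs entered MACS2 2.1.2.1, which was run per replicate against input without changed parameters. The fold enrichment that the authors deposited is a ratio of ChIP to local background, read at each summit. In the deposited lists each p-value and q-value is given as −log10, and the deposited score repeats the q-value as a whole number and was left aside. For the consensus list the authors, per the methods, intersected their lists (bedtools 2.29), kept what 2 or more replicates shared and dropped ENCODE blacklist regions. Of the 255 regions, 38 overlap fewer than 2 of the deposited lists. The Tshz2 region ends at 169632922, past every deposited peak there, the last of which ends at 169632890 in replicate 2. It is thus not an intersection of the deposited peaks.

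Distances were measured from GENCODE vM1 gene bodies on NCBIM37, and no peak lay past the end of a chromosome. Peaks were joined at an overlap of 1 bp, and ranks were taken within each list, because fold enrichments were computed against each replicate's own background and the stated sequencing depths could not be matched to the lists. Promoter sequences are those of RefSeq (GRCm38.p6), used for word shares and for an exact match to NCBIM37; Tshz2 and Tshz3 had an entry. Python 3.11.15, numpy 2.4.6, scipy 1.17.1 and matplotlib 3.10.9 were used, and the distance, merging, rank, word and repeat functions were tested on simulated data. The genes named were the 3 members, host and intervening genes, the nearest genes, and both related lists, with values for the genes that had a region within 800 kb. Myocd and the genes at the nearest peaks outside the limit (Mbp, Zbtb7c and Nedd4l) were given values after these had been seen. The members, lists and alternatives were chosen with earlier results of these data known. The search for repeats was added after the sequences had been seen.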

Additional observations from a re-analysis of the deposited data

How the results depend on the processing

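The Tshz2 count of 1 consensus region and the Tshz1 count of 0 held at 100 kb, 500 kb and 1 Mb and when distance was taken from the transcription start site. The Tshz3 count depended on the limit, being 1 at 800 kb and 1 Mb and 0 at 100 kb, at 500 kb and from the transcription start site, both for consensus regions and, where run, for merged peaks. From the start site, 18.3% of protein-coding genes had a region within 800 kb. Thresholds of q under 0.01 and under 1e-05, run for merged peaks and for the number of lists, left those counts as they were, and without any single replicate the merged counts stayed at 0 for Tshz1 and at 1 for Tshz2 and Tshz3. The Tshz3 region had a peak in 1 list at a reciprocal overlap of 50%, because of the unequal widths, and in 1 to 2 lists when a replicate was left out (1 without replicate 2 and 1 without replicate 3). The Tshz2 region had a peak in 2 lists when any replicate was left out and in 3 when summits had to lie within 100 bp. In replicate 3 the percentile of the Tshz3 peak rose from 74.7 to 91.2 by −log10 q and to 91.2 by −log10 p. The share of protein-coding genes with a consensus region was 12.9% within 500 kb and 22.5% within 1 Mb. Within 100 kb it lay between 3.0% and 3.5% of those on a chromosome with a consensus region. Limits on repetition were chosen after seeing the data: 60% in place of 70% gave 31 consensus windows and 80% gave 15, which keeps the Tshz3 window but not the Tshz2 window. Single peaks have no counting error here since the lists give no reads per peak. No paired analysis was possible because there was 1 group.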
